A study of Mus musculus with 12 samples.

Results

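The transcripts described here encode the AP-1 transcription factors and their BATF and ATF3 relatives: Fos, Fosb, Fosl1, Fosl2, Jun, Junb, Jund, Batf, Batf3 and Atf3. These 10 genes were taken by symbol from the 23420 genes counted in each of 12 RNA sequencing libraries. All 10 were listed and all 10 were among the 12759 genes that passed the filter on low counts and were tested, but Fosl1 passed only through its stimulated libraries. Libraries fell into 4 groups of 3, since wild-type and Otub1 knockout cells were each sequenced fresh and after stimulation.

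The mice of all groups were C57BL/6, were 6 to 8 weeks old (8 weeks in one text) and carried OT-I, a transgenic T cell receptor for an ovalbumin peptide. In the knockout, OTUB1 was deleted with CD4-Cre, a recombinase that acts in T cells from their development in the thymus on. The series' design names the groups WT-OT-I and OTUB1-CD4Cre-OT-I, while one tag calls the knockout OTUB1-DKO. Stimulation was a 24 h culture on anti-CD3 bound to the plate together with anti-CD28, each antibody at 1 µg/ml. Fresh cells were untreated, so antibody and culture form 1 factor in every comparison of stimulated with fresh cells. The design describes naive CD8 T cells of the spleen, a cell type tag names splenic dendritic cells, and a protocol text describes every sample as fresh splenic cells.

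AP-1 is a dimer of basic leucine zipper proteins. JUN proteins pair with each other or with FOS proteins and bind the AP-1 site or the cyclic AMP response element (CRE). In T cells, antigen receptor and CD28 signals reach these genes through MAP kinases and protein kinase C, and AP-1 binds composite elements with NFAT at cytokine genes. BATF and BATF3 lack a transactivation domain, pair with JUN proteins and bind composite elements with IRF4 or IRF8. Fos, Fosb, Jun, Junb and Atf3 are immediate early genes, which are also induced by the handling of tissue.

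Promoter sequences are shown for 5 members around which the results turn: Fos, Jun and Junb, which were lower after stimulation, Atf3, which was higher, and Batf3, which was higher after stimulation and also higher in stimulated knockout than in stimulated wild type, as Junb was. Each window runs from 250 bases before to 50 bases after the RefSeq transcript start, 300 bases in all, printed 5′ to 3′ on the gene's strand (RefSeq, GRCm38.p6). The windows are chr12:85473640-85473939 (+) for Fos, chr4:95052173-95052472 (−) for Jun, chr8:84978699-84978998 (−) for Junb, chr1:191098164-191098463 (+) for Batf3 and chr1:191183284-191183583 (−) for Atf3. Capitals mark every match to a searched motif.
Fos: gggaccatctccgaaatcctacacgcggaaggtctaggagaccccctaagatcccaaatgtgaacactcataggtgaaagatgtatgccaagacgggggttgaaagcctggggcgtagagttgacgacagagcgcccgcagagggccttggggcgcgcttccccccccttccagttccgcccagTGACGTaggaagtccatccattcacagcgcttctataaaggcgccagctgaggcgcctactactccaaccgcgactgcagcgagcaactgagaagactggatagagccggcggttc
Jun: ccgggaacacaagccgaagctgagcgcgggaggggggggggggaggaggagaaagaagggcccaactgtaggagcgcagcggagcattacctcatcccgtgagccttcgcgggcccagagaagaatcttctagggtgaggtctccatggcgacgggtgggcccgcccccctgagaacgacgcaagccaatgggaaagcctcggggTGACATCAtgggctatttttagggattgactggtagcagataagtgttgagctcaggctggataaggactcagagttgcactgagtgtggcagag
Atf3: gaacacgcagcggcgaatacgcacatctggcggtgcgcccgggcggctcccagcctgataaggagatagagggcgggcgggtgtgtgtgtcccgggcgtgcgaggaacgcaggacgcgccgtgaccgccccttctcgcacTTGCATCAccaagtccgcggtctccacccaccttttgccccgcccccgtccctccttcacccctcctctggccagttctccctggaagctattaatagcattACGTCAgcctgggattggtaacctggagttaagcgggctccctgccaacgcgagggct
Junb: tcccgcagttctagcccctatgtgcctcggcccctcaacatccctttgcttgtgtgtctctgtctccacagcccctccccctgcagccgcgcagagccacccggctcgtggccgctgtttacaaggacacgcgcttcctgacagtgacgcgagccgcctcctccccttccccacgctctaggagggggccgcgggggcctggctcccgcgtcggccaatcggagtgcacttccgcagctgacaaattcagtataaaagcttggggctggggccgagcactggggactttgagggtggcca
Batf3: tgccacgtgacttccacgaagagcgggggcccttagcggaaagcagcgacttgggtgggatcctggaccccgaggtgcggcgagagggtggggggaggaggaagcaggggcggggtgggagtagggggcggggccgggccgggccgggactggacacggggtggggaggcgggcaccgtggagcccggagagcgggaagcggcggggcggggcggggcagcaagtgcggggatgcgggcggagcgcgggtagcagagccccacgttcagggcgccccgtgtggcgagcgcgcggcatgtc

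Both strands were searched for the AP-1 site TGANTCA, the CRE TGACGTCA, its core TGACGT, the AP-1-like site TGACATCA, the C/EBP-ATF composite TTGCATCA and the CArG box of serum response factor. Windows were found for 9 of the 10 members. Fos held the CRE core TGACGT from 66 bases before the start, and Jun held TGACATCA from 45 bases before it. Atf3 held TTGCATCA from 110 bases before the start and the CRE core, read on the printed strand as ACGTCA, from 8 bases before it. Batf, whose window is not printed, held TGACGT from 98 bases before its start. No searched letters occurred in the windows of Fosb, Fosl2, Junb, Jund and Batf3, which says nothing about sites elsewhere. Of 32851 promoter windows of the same length, 7.51% held TGACGT, 3.62% TGACATCA, 0.895% TTGCATCA, 7.81% TGANTCA, 1.79% TGACGTCA, in which the core is contained, and 1.63% a CArG box. The GC content of the Batf3 window was 75.7% and that of the Junb window 65.3%, against a median of 52.7% over all windows. It was 68.3% for Fosb, 64.7% for Fosl2 and for Atf3, 60.0% for Jun and 58.7% for Fos. Below that median were Batf at 49.7% and Jund at 46.7%. These matches describe letters, not bound sites.

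Positions are those of GENCODE M21 on GRCm38, the build that the mm10 of the submitters corresponds to. Among the FOS genes, Fos spans chr12:85473890-85477273 (+), Fosb chr7:19302696-19310051 (−), Fosl1 chr19:5447547-5455946 (+) and Fosl2 chr5:32135801-32157842 (+). Jun spans chr4:95049034-95052222 (−), Junb chr8:84974484-84978718 (−) and Jund chr8:70698949-70700616 (+), each with 1 exon. Batf spans chr12:85686669-85709087 (+), Batf3 chr1:191097847-191108945 (+) and Atf3 chr1:191170296-191218039 (−). The RefSeq starts of the promoter windows differ from these GENCODE positions for some members. The Jund window, chr8:70697489-70697788 (+), lies wholly before the Jund span. Those of Fosl2, Batf3 and Atf3 lie wholly inside the spans of their genes. Exons of Jun overlap the antisense gene Junos, exons of Jund the antisense gene Gm11175, and exons of Fosl1 the gene Ccdc85b on the other strand. Whether the counting used strand is not given in the sources used here, so the values of these 3 members may include or lose reads of their partners.

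Libraries held 15064488 to 25920035 gene counts. Otub1, the targeted gene, lay at 45.1 to 72.6 CPM (counts scaled to the library total) in fresh wild type and 25.4 to 28.8 CPM in fresh knockout, and at 85.7 to 100.1 CPM in stimulated wild type and 13.8 to 16.2 CPM in stimulated knockout, so every library followed its genotype label. Fresh wild type 3, fresh knockout 2 and stimulated knockout 3 carried Y-linked reads and the other libraries nearly none, so these 3 groups hold more than 1 animal. All 8 CD8 T cell markers were found, summing to 6046 to 6493 CPM in fresh and 2190 to 2574 CPM in stimulated libraries. Of the markers of dendritic cells, 12 of 12 were found, summing to 1291 to 1965 CPM in fresh and 83.1 to 112 CPM in stimulated libraries. B cell markers (8 of 8 found) summed to 150 to 221 and 23.6 to 35.4 CPM, myeloid markers (7 of 8 listed) to 28.2 to 52.3 and 0.434 to 1.15 CPM, and NK cell markers (6 of 7 above 0) to 14.8 to 27.7 and 1.20 to 2.16 CPM in fresh and stimulated libraries. CD4 T cell markers (4 of 4) summed to 24.4 to 34.6 CPM in fresh and 8.97 to 15.5 CPM in stimulated libraries. The summed level of each of these lists was lower in stimulated than in fresh libraries, and the part of other cells in the changes of the members below was not tested. In such bulk samples fewer cells of a type and less RNA per cell cannot be told apart.

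Stimulation separated the members into 3 sets, in both genotypes. Fos, Fosb, Jun, Junb and Batf fell, Fosl1, Batf3 and Atf3 rose, and Fosl2 and Jund were not called. A gene was called at an edgeR adjusted p under 0.05 over all genes tested. In wild type 3 members were called higher and 5 lower, of which Fosl1 could enter the test only by being higher after stimulation. Calls were frequent in this comparison: 40.8% of all genes tested were called higher and 41.4% lower. In the knockout the counts were also 3 higher and 5 lower, against 41.7% and 42.2% of all genes. The share of members called is thus no higher than that of all genes. The median log2 change of the 10 members was −0.49 in wild type and −0.28 in knockout, against −0.03 and −0.02 for all genes tested.

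**Figure D1:**
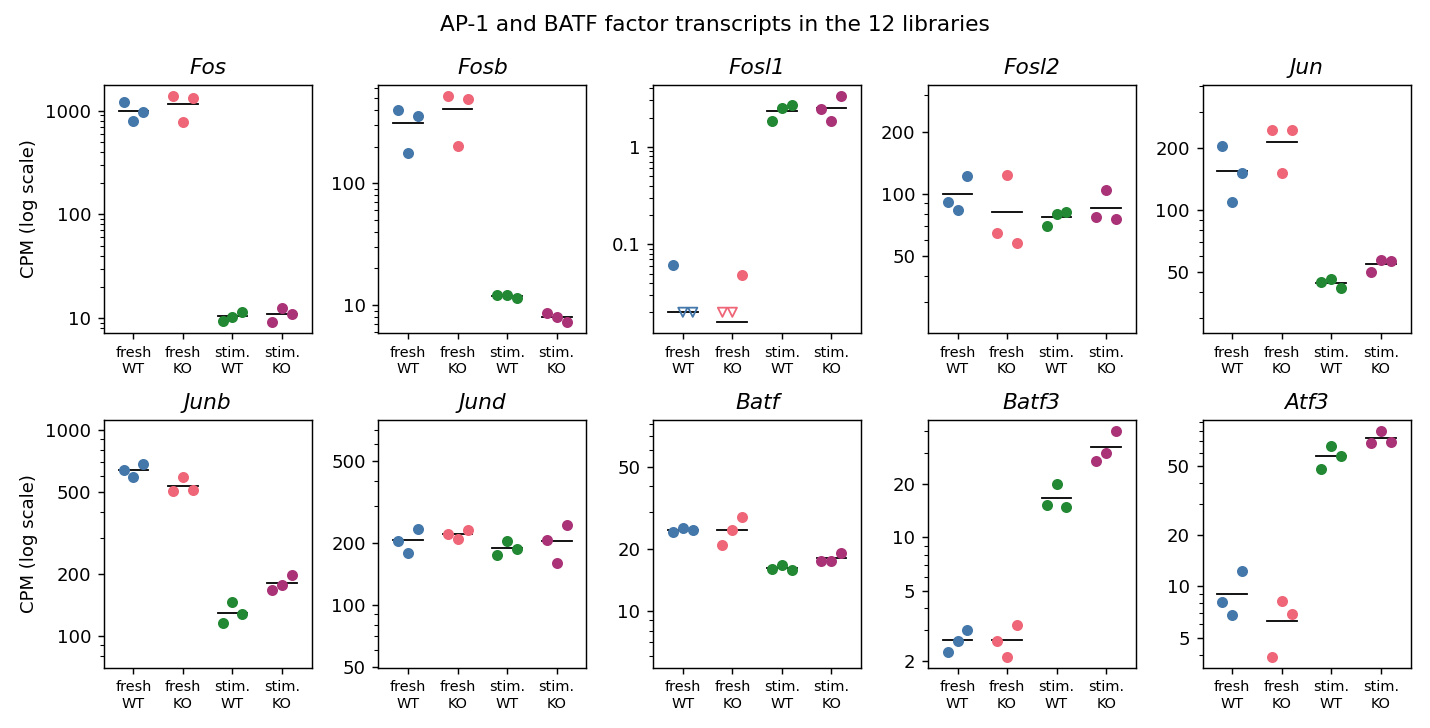
Scaled counts (CPM, log scale, each panel with its own scale) of the 10 members in the 12 libraries. Points are libraries in replicate order, black lines are group means, and open triangles at the bottom of the Fosl1 panel are libraries with 0 counts. Fos, Fosb, Jun, Junb and Batf lie lower in all stimulated libraries than in all fresh ones, while Fosl1, Batf3 and Atf3 lie higher.

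The FOS family held the member that fell most. Fos, the founding member of the family, had 1211, 790 and 961 CPM in fresh wild type and 1373, 768 and 1323 CPM in fresh knockout. After stimulation its level was 9.37, 10.4 and 11.6 CPM in wild type and 9.25, 12.4 and 10.9 CPM in knockout. Every stimulated library thus lay far below every fresh one, while the genotypes overlapped in both states. Fos fell by 6.56 on the log2 scale in wild type (SE 0.24, edgeR adjusted p = 6.27e-13), a 94.3-fold decrease, and ranked 71 from the lowest of all genes tested. In knockout it fell by 6.74 (SE 0.24, edgeR adjusted p = 3.88e-13), a 106.9-fold decrease, and ranked 58.

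Fosb, a FOS protein that is likewise induced early and briefly, followed the same direction. Fresh libraries had 402, 178 and 355 CPM in the wild type and 517, 201 and 494 CPM in the knockout. Stimulated libraries had 12.0, 12.0 and 11.4 CPM in wild type and 8.71, 7.95 and 7.32 CPM in knockout. In both genotypes the stimulated libraries were all below the fresh ones. The log2 change was −4.72 in wild type (SE 0.36, edgeR adjusted p = 5.63e-09) and −5.66 in knockout (SE 0.38, edgeR adjusted p = 9.66e-10). Its spread in fresh libraries was wide, with a mean of 312 ± 118 CPM in the wild type and 404 ± 176 CPM in the knockout (SD, n = 3).

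Fosl1, which encodes the FOS-related protein FRA1, had hardly any counts in fresh libraries. There was 1 count in all 3 fresh wild-type libraries together and 1 count in the 3 fresh knockout libraries. Stimulated libraries held 37, 52 and 64 counts in wild type and 63, 35 and 77 in knockout, or 1.85 to 2.66 CPM and 1.83 to 3.31 CPM. The ratio of stimulated to fresh summed counts, per library size, was 123 in wild type (95% counting interval 21.8 to 4894) and 159.6 in knockout (28.3 to 6340.5). These intervals cover counting error only. Since Fosl1 passed the filter on low counts only through the stimulated libraries, its direction was fixed by that choice, and no test is given. Even after stimulation it remained the lowest of the members, on every scale used here.

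Fosl2, which encodes FRA2, was not called in either genotype. It had 91.3, 83.8 and 123 CPM in fresh wild type and 69.6, 79.8 and 81.7 CPM in stimulated wild type, so all 3 stimulated values lay below the fresh ones, by a log2 difference of −0.36 (95% interval −0.84 to 0.11, edgeR adjusted p = 0.145). In knockout the fresh values were 64.6, 123 and 57.8 CPM and the stimulated values 76.9, 104 and 75.1 CPM, and the groups overlapped (log2 difference 0.05, 95% interval −0.42 to 0.52, edgeR adjusted p = 0.831). Fresh knockout 2 stood apart within its group. Without it, Fosl2 was called lower in wild type (−0.36, edgeR adjusted p = 0.0240) and higher in knockout (0.48, edgeR adjusted p = 0.0106). That library is not part of the wild-type comparison, but the fit shares 1 estimate of spread over all groups. A fit to only the wild-type groups also called Fosl2 lower (−0.37, edgeR adjusted p = 0.0111).

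In the JUN family, Jun and Junb fell and Jund was not called. Jun, the classical partner of FOS, had 205, 110 and 152 CPM in fresh and 44.7, 46.6 and 42.0 CPM in stimulated wild type. In knockout it had 244, 151 and 246 CPM before and 50.4, 57.5 and 56.7 CPM after. No stimulated library reached the lowest fresh one. The decrease was 3.49-fold in wild type (log2 change −1.80, SE 0.20, edgeR adjusted p = 4.2e-07) and 3.90-fold in knockout (−1.96, SE 0.19, edgeR adjusted p = 1.14e-07).

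Junb, a JUN protein that pairs with BATF in activated T cells, fell in both genotypes. It had 643, 592 and 683 CPM in fresh wild type and 115, 147 and 128 CPM in stimulated wild type. In fresh knockout it had 505, 592 and 510 CPM and in stimulated knockout 167, 178 and 197 CPM. Both fresh groups were above both stimulated ones, and the stimulated knockout libraries were all above the stimulated wild-type ones. The decrease was 4.92-fold in wild type (log2 change −2.30, SE 0.09, edgeR adjusted p = 1.78e-12) and 2.97-fold in knockout (−1.57, SE 0.09, edgeR adjusted p = 1.12e-10).

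Jund, a JUN protein known for steady expression in many cells, had 177 to 234 CPM in fresh and 175 to 205 CPM in stimulated wild type. In the knockout its level was 208 to 231 CPM before and 160 to 244 CPM after stimulation. Within each genotype the fresh and stimulated ranges overlapped. The log2 difference of stimulated from fresh cells was −0.12 in wild type (95% interval −0.38 to 0.14, edgeR adjusted p = 0.379) and −0.11 in knockout (−0.37 to 0.15, edgeR adjusted p = 0.410). Without stimulated knockout 3, the highest library, the difference in knockout was called at −0.25 (edgeR adjusted p = 0.0475).

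Batf and Batf3 moved in opposite directions. Batf, which is needed for effector CD8 T cells, had 24.2, 25.0 and 24.6 CPM in fresh and 15.8, 16.7 and 15.7 CPM in stimulated wild type. It had 20.8, 24.7 and 28.3 CPM in fresh and 17.5, 17.4 and 19.1 CPM in stimulated knockout. The stimulated libraries were below the fresh ones in each genotype, by 1.53-fold in wild type (log2 change −0.61, SE 0.10, edgeR adjusted p = 2.62e-05) and 1.37-fold in knockout (−0.45, SE 0.10, edgeR adjusted p = 0.000401).

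Batf3, known both from CD8 T cell memory and from the development of cross-presenting dendritic cells, rose. Fresh libraries had 2.25, 2.62 and 3.00 CPM in wild type and 2.60, 2.13 and 3.21 CPM in knockout. Stimulated libraries had 15.2, 19.9 and 14.8 CPM in wild type and 27.0, 29.8 and 39.9 CPM in knockout. Both stimulated groups were above all fresh libraries, and the knockout was above the wild type. The increase was 6.36-fold in wild type (log2 change 2.67, SE 0.20, edgeR adjusted p = 2.94e-09) and 12.2-fold in knockout (3.61, SE 0.19, edgeR adjusted p = 3.21e-11). Among all genes tested, Batf3 ranked 444 from the highest in wild type and 251 in knockout.

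Beside this increase, the summed level of the 12 dendritic cell markers fell, from 1601 to 1965 CPM in fresh to 95.2 to 112 CPM in stimulated wild type and from 1291 to 1917 CPM in fresh to 83.1 to 104 CPM in stimulated knockout. In stimulated libraries Clec9a, a receptor of cross-presenting dendritic cells, was at 0.0416 to 0.100 CPM in wild type and 0.0774 to 0.262 CPM in knockout, and Xcr1, a chemokine receptor of those cells, at 0.852 to 1.54 CPM and 1.41 to 2.17 CPM. Zbtb46, a transcription factor of conventional dendritic cells, went the other way: its log2 change with stimulation was 1.15 in knockout (SE 0.19, edgeR adjusted p = 3.6e-05) and 0.26 in wild type (SE 0.20, edgeR adjusted p = 0.244), and in knockout it was the 1 marker of the 12 called higher. None of these 12 markers was at 0 over a group, and their part in the Batf3 increase was not tested.

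Atf3, a stress-induced bZIP protein that pairs with JUN proteins, also rose. It had 8.14, 6.78 and 12.3 CPM in fresh and 48.1, 65.2 and 57.7 CPM in stimulated wild type, and 3.90, 8.19 and 6.86 CPM in fresh and 68.7, 80.3 and 69.4 CPM in stimulated knockout. Stimulated libraries lay above all fresh ones. The increase was 6.39-fold in wild type (log2 change 2.68, SE 0.20, edgeR adjusted p = 5.26e-09) and 11.4-fold in knockout (3.51, SE 0.21, edgeR adjusted p = 1.97e-10).

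Levels can be compared between genes only per length, so CPM were divided by the exon length of each gene in kilobases (CPM per kb, GENCODE M21 exons merged per gene). The sum over the 10 members was 1124 ± 171 CPM per kb in fresh and 284 ± 26.7 CPM per kb in stimulated wild type (mean ± SD, n = 3). In the knockout it was 1194 ± 196 CPM per kb before stimulation and 353 ± 36.4 CPM per kb after it. The FOS family made up 49.97% ± 4.32 of this sum in fresh wild type and 7.45% ± 0.547 in stimulated wild type. In knockout its share was 54.9% ± 8.59 in fresh and 6.20% ± 1.23 in stimulated cells. The JUN family made up 47.0% ± 3.85 in fresh and 70.01% ± 0.233 in stimulated wild type, with 42.3% ± 8.04 and 67.5% ± 2.74 in knockout. The share of Batf and Batf3 together was 2.63% ± 0.478 in fresh and 13.2% ± 0.649 in stimulated wild type, with 2.48% ± 0.528 and 16.7% ± 1.10 in knockout. Shares of one sum depend on each other, so a fall of Fos raises the share of every other member.

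**Figure D2:**
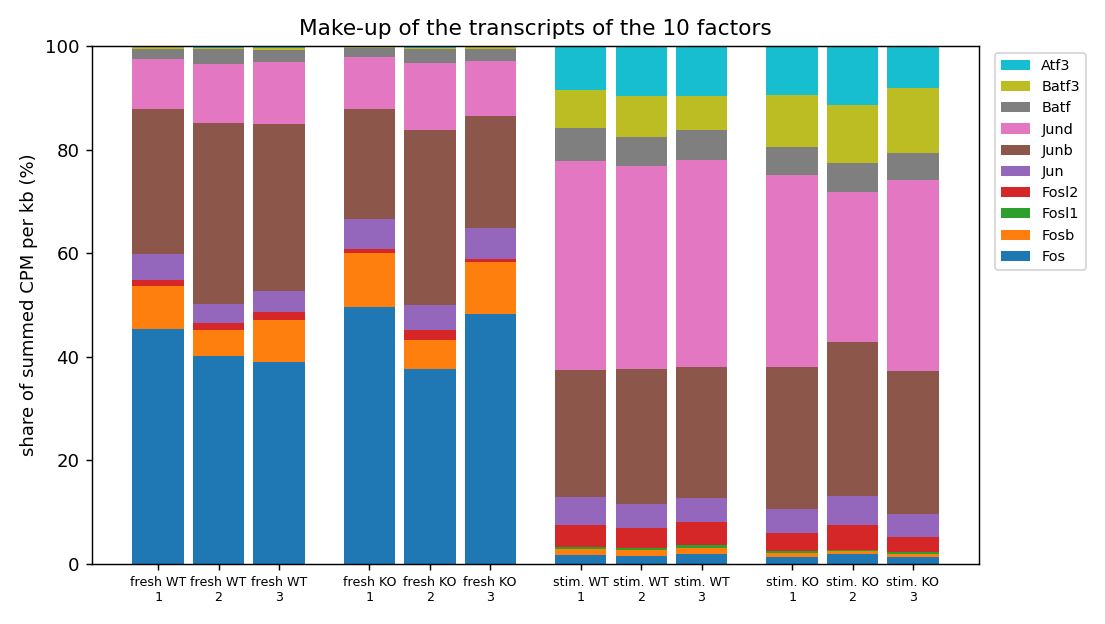
Share (percent) of each member in the summed length-normalised level (CPM per kb) of the 10 members, for each of the 12 libraries. Fos and Junb fill most of the bars in fresh libraries, and Jund and Junb in stimulated ones, where Batf3 and Atf3 also become visible.

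The order of the members by CPM per kb changed with stimulation. In fresh wild type Fos (41.5% ± 3.38 of the sum) and Junb (31.8% ± 3.51) came first with overlapping levels, followed by Jund (11.0% ± 1.24), Fosb (7.15% ± 1.85) and Jun (4.27% ± 0.716), of which the last pair overlapped. Batf and Fosl2 came next, then Atf3 and Batf3 with overlapping levels, and Fosl1 was last. In fresh knockout the order began in the same way, with Jund and Fosb, Fosb and Jun, and Batf3 and Atf3 as the overlapping neighbours. In stimulated wild type Jund came first (39.8% ± 0.562), then Junb (25.2% ± 0.702), then Atf3 (9.29% ± 0.599) and Batf3 (7.30% ± 0.663), the overlapping neighbours, while Fos had fallen to place 8 with 1.75% ± 0.196. In stimulated knockout Jund (34.3% ± 4.58) and Junb (28.3% ± 1.33) overlapped, Batf3 (11.3% ± 1.28) and Atf3 (9.66% ± 1.59) overlapped, and so did Jun and Fosl2.

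Ratios of CPM per kb within a library do not depend on its scaling. Batf3 stood at 0.127 ± 0.0174 of Batf in fresh wild type and 0.129 ± 0.0237 in fresh knockout. After stimulation the ratio was 1.13 to 1.42 in wild type and 1.84 to 2.49 in knockout, so Batf3 was above Batf in every stimulated library and the genotypes did not overlap. The ratio of Junb to Jund was 2.90 ± 0.191 in fresh and 0.634 ± 0.0265 in stimulated wild type. It was 2.26 ± 0.322 in fresh and 0.838 ± 0.163 in stimulated knockout. Its range of 0.744 to 1.03 in stimulated knockout lay above the 0.608 to 0.661 of stimulated wild type, and in fresh cells the knockout lay below the wild type.

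In fresh cells, no member was called between knockout and wild type with edgeR, DESeq2 or limma-voom. At an unadjusted p under 0.05, 2 of the 10 members passed in edgeR, Jun with the knockout higher and Junb with the knockout lower. Of the 12759 genes tested, 1803 passed that threshold. Over all genes tested, 0.98% were called higher and 0.219% lower in knockout (125 and 28 genes, against 227 and 102 with DESeq2). The median log2 difference of the members was 0.01, and that of all genes 0.00. Jun differed by 0.46 (SE 0.18, 95% interval 0.07 to 0.85, edgeR adjusted p = 0.267) and Junb by −0.25 (SE 0.09, 95% interval −0.44 to −0.07, edgeR adjusted p = 0.190). For both, 1 knockout library fell within the range of the wild type, and for Junb the 2 groups met at 592 CPM.

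The other differences in fresh cells had wide intervals. Fos differed by 0.23 (95% interval −0.15 to 0.60), Fosb by 0.38 (−0.23 to 0.98) and Fosl2 by −0.27 (−0.75 to 0.20). For Atf3 the log2 difference was −0.48 (95% interval −0.99 to 0.02), for Jund 0.10 (−0.16 to 0.36), for Batf 0.00 (−0.20 to 0.20) and for Batf3 0.02 (−0.49 to 0.52). Fosl1 had 1 count in each group and gives no fold. Without fresh knockout 2, Fosl2 was called lower in knockout (−0.69, edgeR adjusted p = 0.0473).

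Fos, Fosb and Jun had the same lowest library in each fresh group. Fresh wild type 2 and fresh knockout 2 had the lowest Fos, Fosb and Jun of their groups, with Fosb at 178 and 201 CPM against 355 to 517 CPM in the other fresh libraries. Fresh knockout 1 and 3 had the 2 highest values of all fresh libraries for Fos, Fosb and Jun, and the 2 lowest for Fosl2. Junb and Atf3 did not follow Fos in the knockout: fresh knockout 2 had the highest Junb (592 CPM) and Atf3 (8.19 CPM) of its group. Fosl2 was highest, at 123 CPM each, in fresh wild type 3 and fresh knockout 2, the fresh libraries with Y-linked reads. The summed level of 22 other immediate early genes was 3188, 2772 and 3187 CPM in fresh wild type and 3062, 2926 and 3205 CPM in fresh knockout, lowest in the same 2 libraries. The part of cell isolation or of the animals' sex in these values was not tested.

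**Figure D3:**
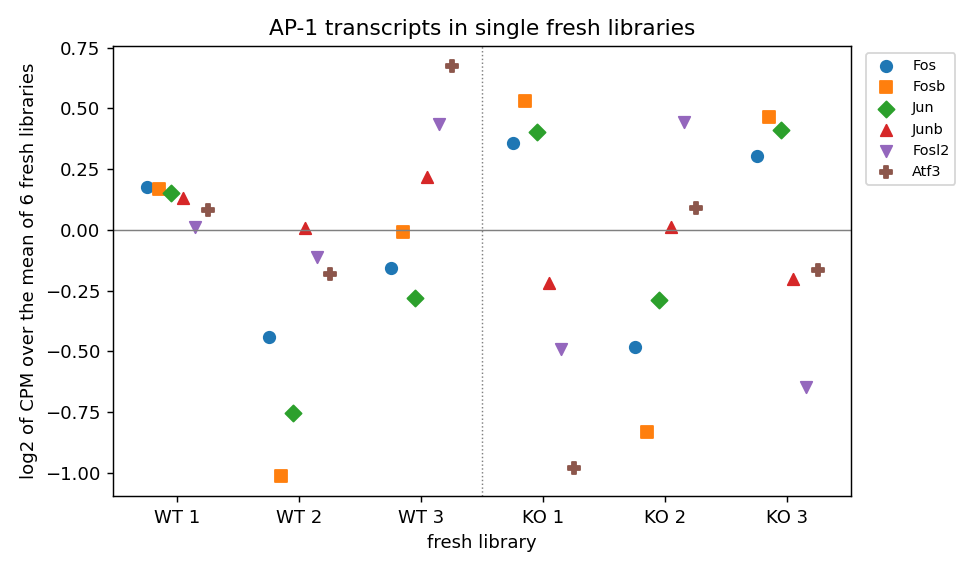
Log2 of the CPM of each fresh library over the mean of the 6 fresh libraries, for Fos, Fosb, Jun, Junb, Fosl2 and Atf3. Fresh wild type 2 and fresh knockout 2 lie low for Fos, Fosb and Jun, and fresh knockout 1 and 3 lie high for these genes and low for Fosl2.

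In stimulated cells 2 members, Batf3 and Junb, were higher in knockout than in wild type and none was lower. Among all genes tested 5.08% were called higher and 4.22% lower. The median log2 difference of the members was 0.15, against 0.00 for all genes. The stimulated knockout values of Batf3 (27.0, 29.8 and 39.9 CPM) were 1.94-fold those of wild type (15.2, 19.9 and 14.8 CPM), a log2 difference of 0.95 (SE 0.15, 95% interval 0.63 to 1.28, edgeR adjusted p = 0.00137). Batf3 ranked 230 from the highest of all genes tested. For Junb the level was 129.9 ± 15.8 CPM without and 180.4 ± 15.3 CPM with the knockout, a log2 difference of 0.47 (SE 0.09, 95% interval 0.28 to 0.66, edgeR adjusted p = 0.0045), or 1.39-fold. For both genes all 3 knockout libraries were above all 3 wild-type libraries. Both were called in all 19 alternative fits, with log2 differences of 0.77 to 1.10 for Batf3 and 0.40 to 0.57 for Junb.

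None of the 8 B cell, 6 myeloid, 5 NK cell and 4 CD4 T cell markers tested was called between the stimulated genotypes with edgeR. In stimulated cells the 12 dendritic cell markers summed to 95.2 to 112 CPM in wild type and 83.1 to 104 CPM in knockout. Zbtb46 was at 4.09 to 5.21 CPM in stimulated wild type and 6.70 to 8.91 CPM in stimulated knockout. It was the 1 marker of that list called between the genotypes (log2 difference 0.76, SE 0.18, edgeR adjusted p = 0.0169), and the part of such cells in the Batf3 values was not tested. Of the 8 CD8 T cell markers, Thy1 was higher in stimulated knockout (0.34, edgeR adjusted p = 0.00446), and Cd3d (−0.40), Cd3e (−0.31), Cd3g (−0.49) and Cd8a (−0.31) were lower.

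A further 4 members had stimulated groups that did not overlap but were not called. The share of all genes tested with such groups was not counted, so nothing is read from this number. Atf3 was higher in all 3 knockout libraries (72.8 ± 6.49 against 57.0 ± 8.58 CPM), by a log2 difference of 0.35 (95% interval −0.01 to 0.72, edgeR adjusted p = 0.232). Jun was higher in all 3 (54.9 ± 3.87 against 44.5 ± 2.31 CPM, log2 difference 0.30, 95% interval −0.12 to 0.73, edgeR adjusted p = 0.392). Batf lay at 18.0 ± 0.98 CPM in knockout and 16.1 ± 0.52 CPM in wild type (log2 difference 0.16, 95% interval −0.05 to 0.37, edgeR adjusted p = 0.341). Fosb was lower in all 3 knockout libraries, at 7.99 ± 0.697 against 11.8 ± 0.348 CPM (log2 difference −0.56, 95% interval −1.49 to 0.37, edgeR adjusted p = 0.477).

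The main model shares 1 estimate of a gene's spread over all 4 groups, and the SD of Fosb was 118 and 176 CPM in the fresh groups but 0.348 and 0.697 CPM in the stimulated ones. In a fit to the 6 stimulated libraries alone, Fosb (log2 difference −0.57, edgeR adjusted p = 0.0140) and Jun (0.30, edgeR adjusted p = 0.0381) were also called, which made 4 members instead of 2. The remaining members had overlapping groups. Their log2 differences were 0.05 for Fos (95% interval −0.49 to 0.58), 0.12 for Fosl1 (−0.43 to 0.66), 0.14 for Fosl2 (−0.33 to 0.62) and 0.11 for Jund (−0.15 to 0.37).

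**Figure D4:**
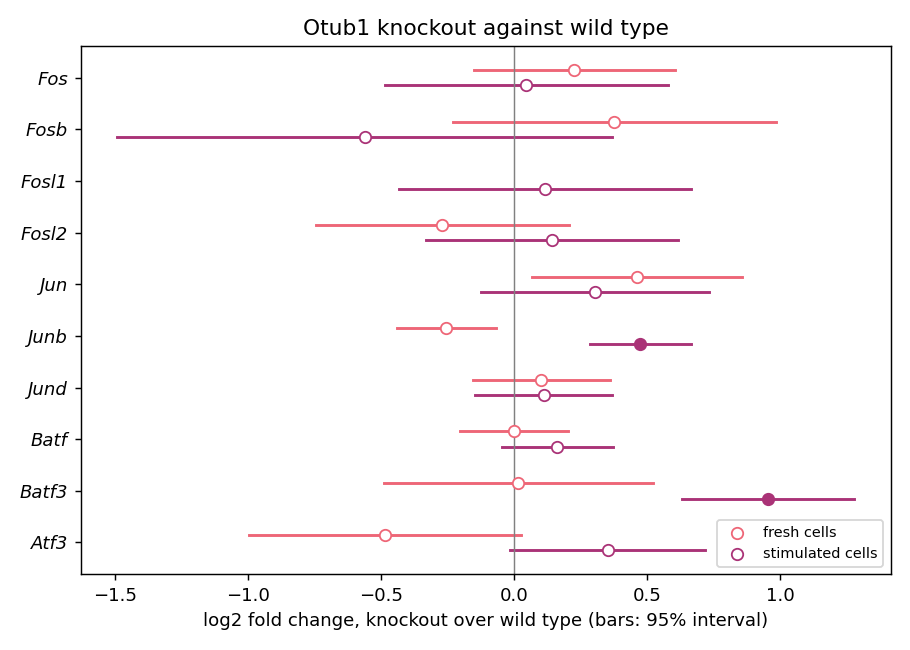
Log2 difference of knockout from wild type for each member, in fresh cells and in stimulated cells, with its 95% interval from the edgeR fit (filled points: called at an adjusted p under 0.05). Batf3 and Junb in stimulated cells are the 2 filled points; Fosl1 in fresh cells is not drawn, since each fresh group held 1 count.

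Whether the genotype difference itself differed between fresh and stimulated cells was tested as an interaction. It was called for 1 member, Junb, and higher in stimulated cells, against 0.698% of all genes tested called in that direction and 1.56% in the other. The Junb difference went from −0.25 in fresh to 0.47 in stimulated cells, an interaction of 0.73 on the log2 scale (SE 0.12, 95% interval 0.46 to 0.99, edgeR adjusted p = 0.00886). It was called in all 18 alternatives that gave it a value, between 0.65 and 0.82.

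Batf3 and Atf3 had interactions of similar size that missed the threshold. For Batf3 it was 0.94 (SE 0.28, 95% interval 0.34 to 1.54, edgeR adjusted p = 0.0981), so its difference in stimulated cells is not shown to differ from that in fresh cells. DESeq2 called it (adjusted p = 0.0287), as did edgeR over every gene with a count (adjusted p = 0.0470), and once the 3 Y-linked libraries were dropped it was 0.52 (edgeR adjusted p = 0.443). For Atf3 the interaction was 0.84 (SE 0.29, 95% interval 0.21 to 1.46, edgeR adjusted p = 0.159). Intervals of the other members spanned 0, with values of −0.94 for Fosb, −0.18 for Fos, 0.41 for Fosl2, −0.16 for Jun, 0.01 for Jund and 0.16 for Batf. The median over the members was 0.23, against 0.00 for all genes.

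Genes around the members were described with lists that cover other bZIP factors, upstream kinases, binding partners, target genes and other immediate early genes. Of 22 other bZIP factors tested (ATF, CREB, MAF, BACH, CNC and C/EBP genes), 14 rose and 6 fell with stimulation in wild type, and 14 rose and 7 fell in knockout, against 40.8% and 41.4% of all genes in wild type and 41.7% and 42.2% in knockout. The median log2 change of the 22 was 0.94 in wild type and 0.63 in knockout, against −0.03 and −0.02 for all genes. Mafg, a small MAF protein, rose by 2.51 on the log2 scale in wild type and 2.56 in knockout, Atf5 by 2.37 and Jdp2, a repressor that binds AP-1 sites, by 1.95 in wild type. In knockout the mean of Atf5 went from 5.22 to 27.8 CPM and that of Jdp2 from 2.03 to 10.0 CPM. Nfil3 rose by 3.01 and Maf fell by 3.04 in knockout. In wild type the mean of Nfil3 went from 7.61 to 27.5 CPM and that of Maf from 2.96 to 0.911 CPM. In stimulated cells 1 of the 22 was higher and 3 lower in knockout than in wild type, against 5.08% and 4.22% of all genes tested. Maff was higher by 0.55 (edgeR adjusted p = 0.0287), and Maf (−1.36, edgeR adjusted p = 0.0361), Bach1 (−0.42, edgeR adjusted p = 0.0157) and Bach2 (−0.33, edgeR adjusted p = 0.0109), BACH proteins being repressors that compete for AP-1 sites, were lower. The count higher went to 0 without stimulated wild type 1 or 3 or without stimulated knockout 1 or 2, and the count lower went to 1 without stimulated knockout 1 or 3 and to 0 without stimulated wild type 3. No bZIP factor was called in fresh cells, where DESeq2 and limma-voom also called 0. In edgeR 2 of the 22 passed an unadjusted p under 0.05 there, beside 1803 of the 12759 genes tested. No bZIP factor was called for the interaction in edgeR, where 7 passed an unadjusted p under 0.05, beside 2086 of the 12759 genes tested. DESeq2 and edgeR over every gene with a count called 3 each for the interaction, and single libraries left out gave 0 to 2.

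Upstream of AP-1, 6 of 27 genes rose and 16 fell with stimulation in wild type, and 7 rose and 14 fell in knockout. The same shares of all genes stand beside these counts, 40.8% higher and 41.4% lower in wild type and 41.7% and 42.2% in knockout, so the share of the 27 called was about that of all genes. Their median log2 change was −0.43 in wild type and −0.22 in knockout. Prkcq, the protein kinase C isoform of the T cell synapse, had log2 changes of −1.88 in wild type and −2.00 in knockout. Map2k6, a kinase of the p38 pathway, fell by 2.07 and 2.28, while Map2k3, of the same pathway, rose by 1.81 in each genotype. In stimulated cells, Map2k1, which encodes the ERK kinase MEK1, was higher in knockout by 0.45 (edgeR adjusted p = 0.00213) and Mapk3, which encodes ERK1, by 0.31 (edgeR adjusted p = 0.0307). Lower in knockout were 3 of the 27, among them Elk4 (−0.25, edgeR adjusted p = 0.00792) and Prkcq (−0.20, edgeR adjusted p = 0.0442). Thus 2 of the 27 were higher and 3 lower, against 5.08% and 4.22% of all genes tested. The count higher went to 1 without stimulated wild type 3 or without stimulated knockout 1 or 2. The count lower went to 1 without stimulated wild type 1 or without stimulated knockout 2 or 3, and to 0 without stimulated wild type 3. In fresh cells none of the 27 was called with edgeR, and 3 passed an unadjusted p under 0.05, beside 1803 of the 12759 genes tested. There limma-voom called 0, and 1 was called higher with DESeq2, with library size only and with every gene with a count.

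Partners on composite elements moved in both directions. Irf4, with which BATF proteins bind, rose from 69.1 ± 12.2 to 819 ± 14.0 CPM in wild type and from 61.9 ± 26.9 to 974 ± 82.5 CPM in knockout (log2 changes 3.57 and 3.97). Irf8 rose by 2.32 and 2.72. Nfatc2 fell by 1.07 in wild type and 1.09 in knockout, and Nfatc3 by 1.06 and 0.91. In stimulated cells Nfatc1 was lower in knockout, with a log2 difference of −0.27 (edgeR adjusted p = 0.00924), while Irf4 (0.25, edgeR adjusted p = 0.455) and Irf8 (0.22, edgeR adjusted p = 0.182) were not called. Of the 5 partners 0 were called higher and 1 lower, against 5.08% and 4.22% of all genes tested. The count higher was 1 with only the groups compared and without the Y-linked libraries. In fresh cells none of these 5 genes was called with edgeR, DESeq2 or limma-voom, and 1 passed an unadjusted p under 0.05 in edgeR (beside 1803 of the 12759 genes tested). The count was 1 lower without fresh knockout 2 and in the fit that dropped the Y-linked libraries.

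Of 19 known target genes, 14 passed the filter on low counts, and passing it through stimulated libraries alone favours genes that rise. In both genotypes 11 of the 14 rose (median log2 change 5.63 in wild type and 5.72 in knockout, a description that this filter affects) and 2 fell, which were Cd40lg (−2.42 in wild type and −2.41 in knockout) and Cd69 (−0.53 and −0.35). Of all genes tested, 40.8% rose and 41.4% fell in wild type, and 41.7% and 42.2% in knockout. Il2ra, the IL-2 receptor alpha chain, rose by 7.63 in wild type and 8.18 in knockout, Ccl3, a chemokine, by 7.46 and 7.47, and Xcl1, a chemokine whose receptor is XCR1, by 7.53 in wild type. In knockout the mean of Xcl1 went from 6.30 to 687 CPM. Il3 had 0 counts in all fresh libraries but 280 in stimulated wild type and 922 after stimulation of the knockout, at least 75.1-fold and 280.3-fold higher when 3 counts over the fresh group are taken as its floor. Il2 had 2 counts over fresh knockout and 1377 over stimulated knockout, a ratio of 628 (95% counting interval 174 to 5191). In wild type Il2 had 9 counts over the fresh and 1118 over the stimulated libraries. In stimulated cells 5 of the 14 were higher in knockout and none lower, against 5.08% and 4.22% of all genes tested. This count of 5 moved by no more than 1.5 times in any alternative. The largest differences were 1.67 for Il3, 1.40 for Csf2, 1.15 for Ifng and 0.90 for Gzmb, the genes of interleukin 3, GM-CSF, interferon gamma and granzyme B, and the fifth gene was Il2ra (0.33). In fresh cells Ccl4, a chemokine, was higher in knockout (0.75, edgeR adjusted p = 0.0219), a call lost with limma-voom, without fresh wild type 2, without fresh knockout 1 and in a fit that left out the Y-linked libraries.

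Other immediate early genes did not share 1 direction after stimulation: of 22 tested, 9 rose and 10 fell in wild type, and 10 rose and 10 fell in knockout, beside the shares of all genes given above. Their median log2 change was −0.64 in wild type and −0.55 in knockout. Dusp1, a phosphatase of MAP kinases, fell by 4.52 in wild type and 4.43 in knockout, and the log2 changes of Ppp1r15a were −3.10 and −2.86. Zfp36, which binds and destabilises mRNAs, fell by 3.18 in knockout, and its mean went from 280 to 41.6 CPM in wild type. Nr4a3, a nuclear receptor induced by antigen receptor signals, rose by 4.85 and 5.27, and Egr2 by 3.02 in wild type. In knockout the mean of Egr2 went from 12.5 to 80.6 CPM. In stimulated cells Ier3 (1.90, edgeR adjusted p = 0.000122) and Klf6 (0.57, edgeR adjusted p = 0.00349) were higher in knockout, and Egr3 (−0.49, edgeR adjusted p = 0.0083) and Egr2 (−0.40, edgeR adjusted p = 0.0435) were lower. These are 2 higher and 2 lower of the 22, against 5.08% and 4.22% of all genes tested. The lower count of 2 went to 0 without stimulated wild type 3, and to 1 without fresh wild type 1, fresh knockout 1 or 3, stimulated wild type 2, or stimulated knockout 1 or 2. In fresh cells none of the 22 was called with edgeR, 3 passed an unadjusted p under 0.05 (beside 1803 of the 12759 genes tested), and limma-voom called 0. The count was 2 higher with DESeq2, with library size only, with every gene with a count and without fresh knockout 1, 1 higher without stimulated knockout 1 or 2, and 1 higher and 1 lower without fresh knockout 2. Once the Y-linked libraries were dropped, 1 was lower.

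The genes most like a member across the 12 libraries were found by the root mean square difference of log2 CPM, after centring each gene. Nearest to Fos were Cd7 (0.27), a T and NK cell surface protein, Plbd1 (0.43) and Clec9a (0.44), of which Clec9a is on the dendritic cell marker list. Nearest to Fosb were Slfn5 (0.39), Ddx60 (0.41) and Pydc4 (0.42), and to Jun Rhob (0.23), Trafd1 (0.25) and Helz2 (0.26). For Junb they were Ttyh3 (0.17), Stx2 (0.18) and Vps37b (0.18), and for Batf3 Serpinb9 (0.23), an inhibitor of granzyme B, Slc2a6 (0.27) and Ccr4 (0.28), a chemokine receptor. Those of Atf3 were Dab2ip (0.28), Bbs12 (0.31) and Nek6 (0.31), those of Fosl1 Plscr1 (0.27), Mcm10 (0.30) and Cd200 (0.31), and those of Fosl2 Zbtb10 (0.16), Tagap (0.22) and Snx18 (0.23). Jund lay nearest to Znhit2 (0.11), Lypla2 (0.11) and Gemin7 (0.12), and Batf to Mtmr4 (0.07), Mvb12a (0.08) and Lmf1 (0.08). The step between fresh and stimulated libraries enters this measure, and nothing follows from it about shared control.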

How the data were processed

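RNA of 12 mouse samples was sequenced, in 4 groups of 3 taken from the source labels. Each sample has a deposited table of raw counts of reads for every gene, which the authors had not normalized. The submitters' processing notes name TopHat, TopHat2, HTSeq, DESeq2 and mm10. Which versions, annotation and strand setting were used is not given in the sources used here. The 5 HTSeq summary lines at the end of each file (5.22% to 6.43% of its total) were left out.

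The analysis used edgeR 4.0.16 in R 4.3.3: filterByExpr by group, which left 12759 genes, TMM factors (0.988 to 1.01), and 1 quasi-likelihood fit to all groups, each with its own coefficient, with 8 residual degrees of freedom. Tests were two-sided, with Benjamini-Hochberg adjustment over all genes tested and calls under 0.05. "edgeR adjusted p" means this test. Errors are the SD of 3 libraries or the SE of the fit, and intervals are 95%. Replicates in every pair differed beyond sampling noise (chi-square divided by its degrees of freedom, 4.26 to 18.6). The labels do not say that replicates are separate animals. The p-values therefore describe only the spread among these libraries, which may be technical. Comparisons of stimulated with fresh cells and of knockout with wild type share groups and are given side by side. The fit was tested on simulated data, and no result of that test is used here.

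Members and gene lists were chosen with earlier results of these data known, so a list's direction is no independent support. Named genes are the members, Otub1, up to 4 called genes per list and comparison with the largest log2 change, and the 3 genes nearest to a member in pattern, except that some genes of the lists are counted but not reported here by name. Markers, and genes of the lists named beyond this rule (Prkcq, Irf4, Irf8 and Il2ra between stimulated genotypes, Cd40lg and Cd69), were chosen after their values were seen. Genes that the rule named with stimulation in only 1 genotype are given in the other by mean CPM or counts. The 7 alternatives were DESeq2 1.42.0, limma-voom (limma 3.58.1), DESeq2 size factors, library size only, every gene with a count, only the groups compared, and no libraries with Y-linked reads, and 12 more left out 1 library each.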

Additional observations from a re-analysis of the deposited data

Results flagged for a closer look

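A genotype difference that differed between fresh and stimulated cells, by the interaction test, was found for Junb among the members and for Klf6 and Ccl4 in the other lists. For Junb the interaction was 0.73 on the log2 scale (edgeR adjusted p = 0.00886). Its knockout libraries lay mostly below wild type in fresh cells and all above it in stimulated cells. For Klf6, an immediate early gene, it was 0.58 (edgeR adjusted p = 0.0497). For Ccl4, a chemokine gene, it was −0.78 (edgeR adjusted p = 0.0296). Of the 10 members, Junb alone met this rule with edgeR, where 3 passed an unadjusted p under 0.05, beside 2086 of the 12759 genes tested.

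The Junb call was kept in every alternative that gave a value. That of Klf6 was lost in 8 of the 12 fits that left out 1 library, and that of Ccl4 in 5 of them, fresh wild type 3 and stimulated wild type 3 being among the libraries for both. Both calls were also lost with limma-voom and without the Y-linked libraries, and that of Klf6 with DESeq2 size factors.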

How the results depend on the processing

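No paired analysis was possible because the labels number the libraries through the series and name no animals, so replicate numbers only name libraries. The number of members called between knockout and wild type in stimulated cells was 2, and 4 with only the groups compared. In fresh cells it was 0, and 0 to 1 when single libraries were left out, the 1 being Fosl2 without fresh knockout 2. For the interaction it was 1, and 2 with DESeq2 and with every gene with a count, where Batf3 was added. With stimulation it was 8 in each genotype, and 8 to 9 without single libraries. In wild type it was 9 with only the groups compared, where Fosl2 was added. Without the libraries with Y-linked reads, Fosl2 (0.56, edgeR adjusted p = 0.000858) and Jund (−0.30, edgeR adjusted p = 0.0190) were called with stimulation in knockout. Of 939 values of members, 34 changed sign, none of them called in either fit.

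Counts over all genes moved more. In fresh cells, 125 genes were called higher in knockout, against 227 with DESeq2, 202 with every gene with a count, 53 without the Y-linked libraries and 21 to 170 when single libraries were left out. The 28 called lower became 102 with DESeq2, 43 with every gene, 49 with limma-voom and 8 to 76 without single libraries. In stimulated cells 648 higher became 258 to 796 without single libraries, and 539 lower became 358 with only the groups compared, 359 without the Y-linked libraries and 256 to 532 without single libraries. For the interaction, 89 higher became 188 with DESeq2, 151 with every gene, 55 without the Y-linked libraries and 32 to 153 without single libraries. The 199 lower became 360 with DESeq2, 67 without the Y-linked libraries and 99 to 252 without single libraries. The cause was not tested. Fosl1, with 1 count in each fresh group, is limited by depth.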
